A study of Mus musculus with 8 samples.

Results

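Expression of 10 genes of nitric oxide, arginine and itaconate metabolism was examined in lung neutrophils during Streptococcus pneumoniae (SP) pneumonia in mice. The genes are Nos2, Gch1, Slc7a2, Ass1, Asl, Arg1, Arg2, Odc1, Acod1 (formerly Irg1) and Lacc1. They were chosen by their role in these pathways and with the SP against PBS differences of these same arrays in view, so their differences between the groups are given as a description, without a p-value for any of them. All 10 had a row, 1 each, among the 24625 rows of the expression table, which hold 19836 distinct gene symbols. Neutrophils came from wild type mice that the labels give as 6 to 12 weeks old, while the methods give a narrower range with the same lower bound. The strain was C57BL/6J per the methods. The methods name female mice as those purchased to start colonies and state that mice were matched for sex. They do not name the sex of the mice studied. No mouse carried an altered gene. Mice of the SP group received bacteria (a serotype 19 strain, per the methods) into the left lung through the trachea, and mice of the PBS group received phosphate-buffered saline alone, both in a volume of 2.3 µl per g of body weight. Cells positive for Ly6G, a surface protein of mouse neutrophils, were taken from digests of the lung with magnetic beads 24 h later. Per the methods, stained cytospins were used to judge the purity of the SP samples only. There the methods report high purity, with few other cells that mostly looked like alveolar macrophages and rarely like eosinophils. They also report high Ly6G mRNA in all samples. Each group has 4 arrays. No label states that each array is a separate mouse, while a figure legend of the paper describes each sample as taken from a mouse. The p-values measure the spread between these samples. Values are log2 intensities, so a difference of 1 is 2-fold.

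Nitric oxide and itaconate are made by myeloid cells that meet bacteria or inflammatory cytokines. Inducible nitric oxide synthase, encoded by Nos2, oxidizes arginine to nitric oxide and citrulline and needs tetrahydrobiopterin as a cofactor, whereas the arginases split arginine into ornithine and urea, so both kinds of enzyme draw on one substrate. Acod1 makes itaconate from cis-aconitate, an intermediate of the citric acid cycle, and itaconate inhibits succinate dehydrogenase. Arg1 in mice is widely used as a marker of macrophages exposed to interleukin 4 or interleukin 13, and Nos2 as a marker of macrophages exposed to interferon gamma or bacterial products.

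The labelled cell type was checked against marker genes before the results were read. Of the neutrophil markers 9 of 10 had a row (Ly6g itself was not matched), and their mean per array lay between 12.84 and 13.14 in PBS and between 12.57 and 13.08 in SP, with 3 called lower in SP and 0 higher. Markers of several other lung cells were also above the low end of the scale. That low end is given here by the Y-linked genes Ddx3y, Kdm5d and Uty, which read 4.33 to 4.90 over the 8 arrays. The alveolar type 2 cell markers averaged 12.03 to 12.47 in the PBS arrays and 10.42 to 11.57 in the SP arrays, with 7 of 8 called lower in SP. The club cell markers averaged 12.83 to 13.29 in PBS, a range like that of the neutrophil markers, and 10.70 to 11.58 in SP, with 5 of 5 called lower. The ciliated cell markers were lower in 6 of 6 and the endothelial markers in 8 of 10. Of 11 markers of monocytes and interstitial macrophages with a row, 5 were called higher in SP and 0 lower. Of 10 alveolar macrophage markers, 6 were called lower and 2 higher. Of 6 eosinophil markers, 2 were called higher in SP (Ear6, 5.20-fold, and Prg2, 1.36-fold) and 0 lower. Array medians were 5.78 to 5.91 in SP and 6.06 to 6.20 in PBS. In a bulk sample, fewer cells of a type and less RNA per cell cannot be told apart.

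**Figure D1:**
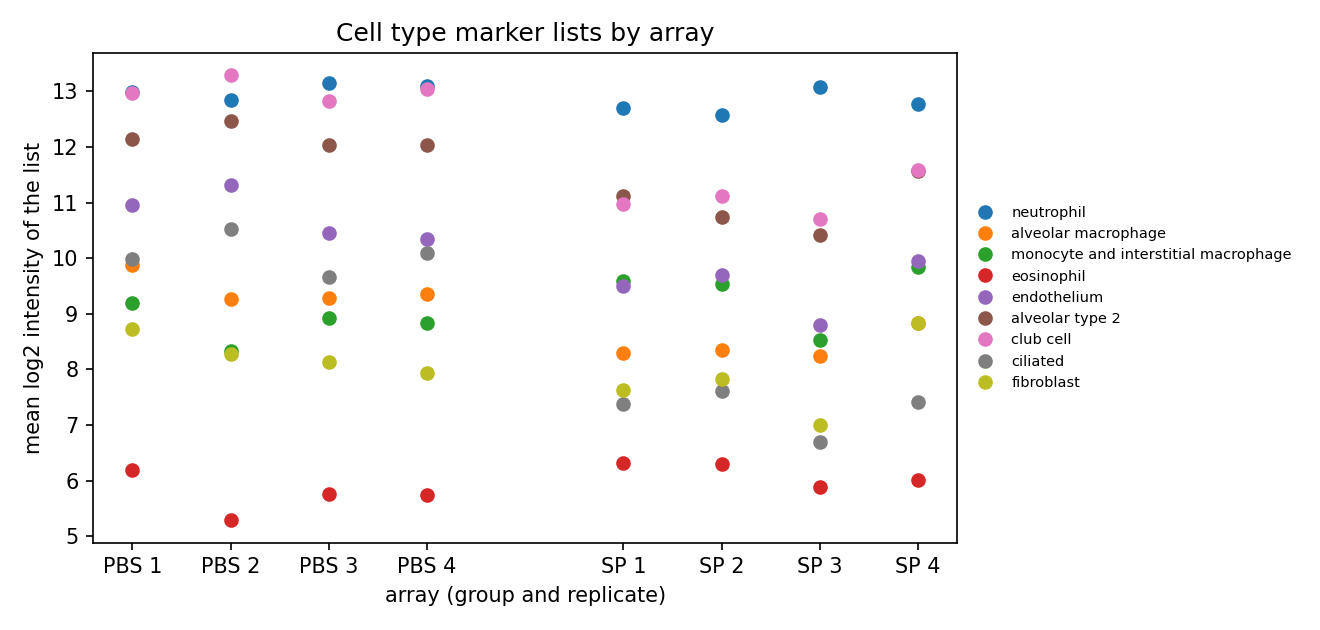
Mean log2 intensity (vertical axis) of the markers of 9 cell types in each of the 8 arrays (horizontal axis, group and replicate). Each point is the mean over the markers of 1 cell type with a row. The neutrophil mean stays between 12.57 and 13.14, the epithelial and endothelial means are lower in SP, and SP replicate 3 has the highest neutrophil mean of its group and the lowest mean of its group for every other list.

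Promoter sequences show which of the 10 genes carry the letters of binding sites usually named for them. The RefSeq table for build GRCm38.p6 gave the bases before the start of 5 of the 10 (Acod1, Ass1, Gch1, Lacc1 and Odc1), and the other 5 were not analysed here. For Lacc1 and Odc1 the window overlaps the annotated gene, whose outermost start lies further upstream, and these are not printed. The stretch of 160 bases that ends at the last base before the start is shown for a gene of itaconate synthesis, a gene of arginine recycling and a gene of cofactor synthesis. The Acod1 stretch lies on the plus strand at chr14:103046852-103047011, that of Ass1 on the plus strand at chr2:31470110-31470269 and that of Gch1 on the minus strand at chr14:47189414-47189573. Each is written 5′ to 3′ on the gene's strand. Capitals mark the letters of an NF-κB site, a TATA box, an E-box or a hypoxia response core.
Acod1: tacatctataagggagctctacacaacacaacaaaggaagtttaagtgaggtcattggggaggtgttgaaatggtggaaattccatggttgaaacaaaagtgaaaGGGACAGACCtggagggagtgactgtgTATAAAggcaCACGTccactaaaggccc
Ass1: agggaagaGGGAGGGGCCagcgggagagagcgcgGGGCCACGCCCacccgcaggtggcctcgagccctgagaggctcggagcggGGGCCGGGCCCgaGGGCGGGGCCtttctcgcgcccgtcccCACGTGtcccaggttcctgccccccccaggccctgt
Gch1: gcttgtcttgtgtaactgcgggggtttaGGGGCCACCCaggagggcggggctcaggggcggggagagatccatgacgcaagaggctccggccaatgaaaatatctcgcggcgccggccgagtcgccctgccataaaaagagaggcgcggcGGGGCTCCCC

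In the Acod1 stretch, the capitals are, from left to right, an NF-κB match, a TATA box from 28 to 23 bases before the start, and a hypoxia response core on the opposite strand. In Ass1, the last capitals form an E-box, within which the hypoxia response core lies on both strands, and all others are NF-κB matches. In Gch1, all capitals are NF-κB matches, the last of them ending at the base before the start. Over 250 bases before the start and on both strands, an NF-κB match was found in 5 of 5 of these promoters and in 57.0% of 32851 mouse promoters. The letters therefore occur in more than 1 of 2 promoters of this length. The TATA box TATAAA was found in 2 of 5 (Acod1 and Gch1) against 12.4% of all promoters, the hypoxia response core ACGTG in 2 of 5 (Acod1 and Ass1) against 16.6%, and the E-box CACGTG, which contains that core, in 1 of 5 (Ass1) against 6.02%. The TATAAA match of Gch1 lies on the opposite strand at bases -188 to -183, outside the printed stretch. The gamma-activated site TTCNNNGAA (in 7.02% of all promoters), the C/EBP site TTNNGCAA (9.56%), the AP-1 site TGANTCA (6.75%), the interferon-stimulated response element (2.98%) and the STAT6 site (5.85%) were found in 0 of 5. A match is a description of letters in this window, and no binding was measured.

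Of the 10 genes, 7 were called higher in SP at an adjusted p of at most 0.05, 0 were called lower and 3 were not called. In the same fit 21.5% of all rows were called higher and 22.6% lower. At the 2-fold criterion, which also asks for a difference of at least 1 log2 unit, 5 of the 10 were called higher and 0 lower, beside 6.37% and 11.3% of all rows. The arrays of the groups did not overlap for 8 of the 10, beside 49.0% of all rows. The median difference was 0.92 log2 units over the 10 genes and 0.10 over all rows. Because the genes were selected on this contrast, nothing is read from these shares. The members just inside and just outside the 2-fold criterion were Gch1 (1.12) and Asl (0.71), and those on either side of the adjusted p criterion were Acod1 (0.70), which met it, and Arg2 (0.65), which did not.

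**Figure D2:**
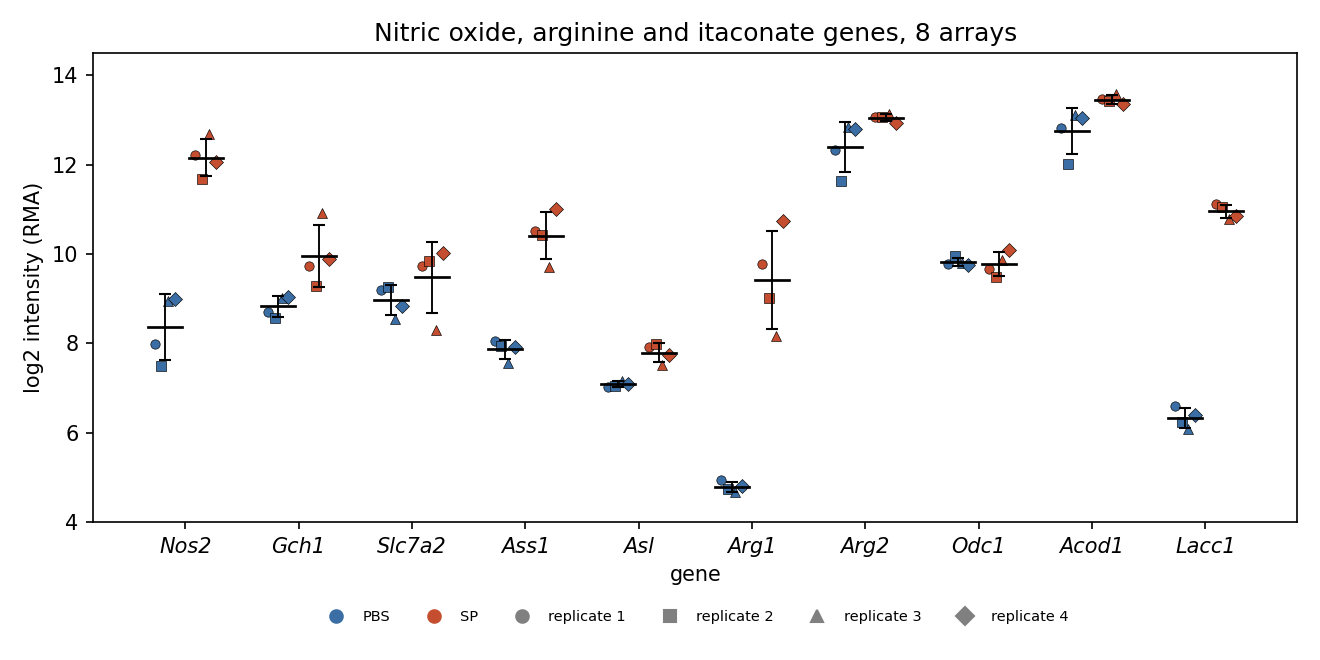
Log2 intensity (vertical axis) of the 10 genes (horizontal axis) in the 4 PBS arrays (blue) and 4 SP arrays (orange), with marker shapes for the replicate numbers, horizontal lines at the mean and bars of 1 SD. The groups are separated by 2.68 log2 units or more for Nos2, Arg1 and Lacc1 and overlap for Slc7a2 and Odc1; intensities of different genes are not on a common scale.

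Nos2, the inducible nitric oxide synthase, was at 7.99, 7.50, 8.96 and 8.999 in the PBS arrays (replicates 1 to 4 here and below) and at 12.22, 11.68, 12.68 and 12.07 in the SP arrays. Every SP array lay above every PBS array, by at least 2.68. The means were 8.36 ± 0.74 (SD, n = 4) and 12.16 ± 0.41 (SD, n = 4), a difference of 3.80 (SE 0.37) or 13.9-fold. In PBS, replicates 3 and 4 were higher than replicates 1 and 2. Leaving out 1 array at a time gave differences of 3.51 to 4.01.

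Gch1 encodes GTP cyclohydrolase 1, the rate-limiting enzyme of tetrahydrobiopterin synthesis. It was at 8.71, 8.56, 9.03 and 9.04 in PBS and at 9.73, 9.28, 10.92 and 9.90 in SP. The groups did not overlap, with a gap of 0.24, and SP replicate 3 stood above the other SP arrays. The means were 8.83 ± 0.24 and 9.96 ± 0.69 (SD, n = 4 each), a difference of 1.12 (SE 0.32) or 2.18-fold. Without SP replicate 3 the difference was 0.80. Gch1 was called in the fit across all rows but not without PBS replicate 1 or without PBS replicate 2.

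Slc7a2 encodes a cationic amino acid transporter, CAT2, that brings arginine into cells. It was at 9.21, 9.27, 8.56 and 8.83 in PBS and at 9.74, 9.84, 8.31 and 10.03 in SP. SP replicate 3 was below all 4 PBS arrays and the other SP arrays were above all of them. The means were 8.97 ± 0.33 and 9.48 ± 0.79 (SD, n = 4 each), and the difference of 0.52 (SE 0.37) was not called. Without SP replicate 3 it was 0.91 and was called.

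Ass1 and Asl encode argininosuccinate synthase and argininosuccinate lyase, which together rebuild arginine from the citrulline that nitric oxide synthase releases. Ass1 was at 8.06, 7.95, 7.57 and 7.92 in PBS and at 10.51, 10.42, 9.72 and 11.01 in SP. The lowest SP array was 1.65 above the highest PBS array, and replicate 3 was the lowest array of both groups. The means were 7.87 ± 0.21 and 10.41 ± 0.53 (SD, n = 4 each), 2.54 (SE 0.25) or 5.82-fold higher in SP. Asl was at 7.02, 7.05, 7.17 and 7.10 in PBS and at 7.92, 7.99, 7.52 and 7.75 in SP. The SP arrays were again all above the PBS arrays, by at least 0.35, and SP replicate 3 was again the lowest of its group. Its means were 7.08 ± 0.07 and 7.80 ± 0.21 (SD, n = 4 each), a difference of 0.71 (SE 0.11) or 1.64-fold.

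Arg1, the cytosolic arginase, was at 4.94, 4.74, 4.67 and 4.81 in PBS and at 9.77, 9.01, 8.16 and 10.73 in SP. The Y-linked rows read 4.33 to 4.72 in the same PBS arrays, so the PBS level of Arg1 was close to the low end of the scale. The SP arrays spread over 2.58 log2 units, the widest SP range of the 10 genes, with replicate 3 lowest and replicate 4 highest. The means were 4.79 ± 0.12 and 9.42 ± 1.10 (SD, n = 4 each). The measured difference was 4.63 (SE 0.47), or 24.7-fold, which the low end of the scale limits in PBS. Arg2, the mitochondrial arginase, was at 12.32, 11.63, 12.85 and 12.80 in PBS and at 13.08, 13.06, 13.14 and 12.94 in SP. The groups were separated by 0.09, and the SP arrays lay within 0.20 of each other while the PBS arrays spread over 1.22. Its means were 12.40 ± 0.57 and 13.05 ± 0.08 (SD, n = 4 each), and the difference of 0.65 (SE 0.25) was not called. Without PBS replicate 2, the lowest array, it was 0.40, and without PBS replicate 3 it was 0.80 and was called. Arg2 was near the top of the measured scale in both groups, above 99.3% of rows in PBS and 99.8% in SP.

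Odc1 encodes ornithine decarboxylase, which takes the ornithine made by arginase into polyamine synthesis. It was at 9.78, 9.97, 9.81 and 9.76 in PBS and at 9.67, 9.49, 9.86 and 10.09 in SP. The groups overlapped, with SP replicates 1 and 2 below and SP replicate 4 above all PBS arrays. The means were 9.83 ± 0.09 and 9.78 ± 0.26 (SD, n = 4 each), a difference of -0.05 (SE 0.13), and it became 0.23 when each array was centred on its own median.

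Acod1, the enzyme that makes itaconate, was at 12.83, 12.01, 13.11 and 13.05 in PBS and at 13.48, 13.42, 13.57 and 13.35 in SP. The groups were separated by 0.24, and the SP arrays lay within 0.22 of each other against a PBS range of 1.10. The means were 12.75 ± 0.51 and 13.46 ± 0.09 (SD, n = 4 each), a difference of 0.70 (SE 0.23) or 1.63-fold. Acod1 was above 99.7% of rows already in PBS, and the 99th percentile of the arrays was 12.13 to 12.52. Without PBS replicate 2, the lowest, the difference was 0.46. Acod1 was called in the fit across all rows but not when PBS replicate 1 or any 1 of the SP arrays was left out. Lacc1 encodes a multifunctional enzyme of purine and citrulline metabolism in macrophages. It was at 6.61, 6.24, 6.08 and 6.40 in PBS and at 11.12, 11.05, 10.79 and 10.86 in SP. Neither group spread over more than 0.53 and the gap between them was 4.18. The means were 6.33 ± 0.23 and 10.95 ± 0.15 (SD, n = 4 each), 4.62 (SE 0.13) or 24.6-fold higher in SP, and 34 of all rows had a larger difference. Its standard error was the second smallest of the 10 genes although its difference was the second largest.

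Within a group, the 10 genes did not order the arrays alike. SP replicate 3 was the lowest of the SP arrays for 5 genes (Arg1, Ass1, Asl, Slc7a2 and Lacc1) and the highest for 4 (Nos2, Gch1, Arg2 and Acod1). Relative to the SP mean it was 1.26 lower for Arg1, 1.17 lower for Slc7a2 and 0.70 lower for Ass1, and 0.96 higher for Gch1 and 0.52 higher for Nos2. SP replicate 4 was the highest for Arg1, Ass1, Slc7a2 and Odc1 and the lowest for Arg2 and Acod1. Over all rows, SP replicate 3 was lowest in 33.9% and highest in 41.1%, so it stood at an end of its group for most rows. SP replicate 4 was lowest in 27.0% of all rows and highest in 23.7%. In PBS, replicate 2 was the lowest for Nos2, Gch1, Arg2 and Acod1, and replicate 3 for Arg1, Ass1, Slc7a2 and Lacc1. Over all rows, PBS replicate 2 was lowest in 36.3% and PBS replicate 3 in 24.4%. Nos2, Gch1, Arg2 and Acod1 were thus lowest in PBS replicate 2 and highest in SP replicate 3. These arrays also stood at the ends of the marker lists. The neutrophil mean was highest in SP replicate 3 (13.08 against 12.57 to 12.78) and lowest of PBS in replicate 2 (12.84 against 12.98 to 13.14). The monocyte and interstitial macrophage mean was 9.59, 9.53, 8.53 and 9.84 in SP replicates 1 to 4. This is the SP order of Arg1, Ass1 and the alveolar type 2 list. Other genes shared their SP order with other lists, Gch1 with the neutrophil list and Lacc1 with the eosinophil list. Slc7a2 shared its order with the alveolar macrophage, endothelial, club cell and fibroblast lists. In PBS the monocyte and interstitial macrophage mean was lowest in replicate 2, at 8.33, while Arg1 and Ass1 were lowest in replicate 3. Of the 8 marker lists other than the neutrophil list, 6 were lowest in SP replicate 3 and highest in SP replicate 4. Of the 10 alveolar macrophage markers, 7 were highest in SP replicate 4, and the mean of the list was 8.84 there against 8.24 to 8.35 in the other SP arrays. The part of other cells in the values of these genes was not tested.

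**Figure D3:**
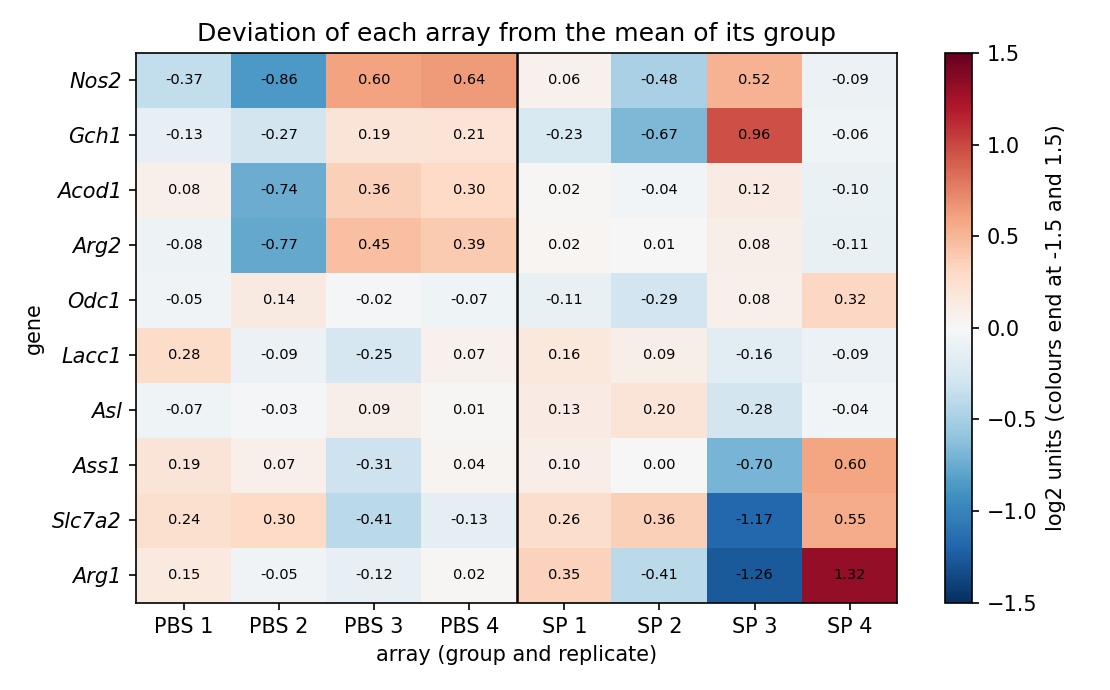
Deviation of each array (columns, group and replicate) from the mean of its own group for each of the 10 genes (rows), in log2 units, printed in each cell and coloured from blue (lower) to red (higher). SP replicate 3 is 0.52 above its group mean for Nos2 and 1.26 below it for Arg1, and PBS replicate 2 is 0.74 to 0.86 below its group mean for Nos2, Acod1 and Arg2.

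The genes whose values over the 8 arrays were nearest to those of Nos2 after each row was centred on its mean were Ifit1 (root mean square distance 0.23), Batf (0.27) and Il23a (0.28). Ifit1, an interferon-induced gene, was at 8.88, 8.14, 9.58 and 9.49 in PBS and at 12.87, 12.75, 12.93 and 12.74 in SP. The nearest to Arg1 were Fcrlb (0.57), Slc6a12 (0.57) and Ccl2 (0.59). Fcrlb was at 4.71, 4.54, 4.53 and 4.72 in PBS and at 9.46, 9.61, 9.24 and 9.81 in SP. Slc6a12 was at 9.42, 9.51, 7.82 and 9.39 in SP, with replicate 3 lowest and replicate 2 highest. Ccl2, a chemokine that attracts monocytes, was at 8.11, 6.49, 7.41 and 7.03 in PBS and at 11.40, 11.39, 10.46 and 11.92 in SP. In SP, replicate 3 was lowest and replicate 4 highest for Fcrlb and Ccl2, as for Arg1. The PBS arrays of Ccl2 spread more than those of Arg1 (SD 0.68 against 0.12). The nearest to Acod1 were Fcgr3 (0.064), Lpcat2 (0.067) and Zfp51 (0.069). Fcgr3, a low-affinity Fc receptor for IgG, was at 11.86, 11.12, 12.29 and 12.18 in PBS and at 12.55, 12.60, 12.55 and 12.47 in SP. These distances are descriptions over 8 arrays that share the difference between the groups.

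Other genes of the same pathways were taken from 4 lists and tested by limma over all rows. The lists were chosen with earlier results of these data known, and many of the named genes have the largest differences within them. Their adjusted p-values are therefore descriptive and give no independent support. Over all rows, 21.5% were called higher and 22.6% lower, and the median difference was 0.10. In the list of nitric oxide and tetrahydrobiopterin genes, 3 of the 18 with a row were higher in SP, 10 were lower and 5 were not called, and the median difference was -0.92. The enzyme after Gch1 on the way to tetrahydrobiopterin, Pts, rose from 8.01 ± 0.28 to 10.37 ± 0.20 (SD, n = 4 each), by 2.36 (SE 0.16), 5.12-fold, with a limma adjusted p of 1.96e-05. All 4 SP arrays of Pts, at 10.42, 10.61, 10.30 and 10.13, were above all PBS arrays. The enzyme of the last step, sepiapterin reductase (Spr), fell instead, by 1.03 (SE 0.24; limma adjusted p = 0.00855), and Pcbd1, a dehydratase of tetrahydrobiopterin recycling, fell by 1.77 (SE 0.16; limma adjusted p = 6.86e-05). Gchfr, the feedback regulator of GTP cyclohydrolase 1, stayed near the low end of the scale at 4.67 ± 0.15 and 4.75 ± 0.22 (SD, n = 4 each) and was not called. Subunits of soluble guanylate cyclase, the receptor of nitric oxide, were lower. Gucy1b1 went from 8.07 ± 0.68 to 5.99 ± 0.51 (SD, n = 4 each), 4.22-fold lower (limma adjusted p = 0.00231), and Gucy1a2 was 3.80-fold lower as measured (limma adjusted p = 0.000742). The SP arrays of Gucy1a2, at 4.37 to 4.78, were at the level of the Y-linked rows, so that fold is limited by the low end of the scale. Ddah2, which degrades an inhibitor of nitric oxide synthases, was 2.47-fold lower (limma adjusted p = 0.00194). Nos3, the endothelial synthase, was at 6.75, 6.52, 5.46 and 7.62 in SP and at 5.96 to 6.65 in PBS, and its difference of 0.28 (SE 0.41) was not called. Nos1, the neuronal synthase, read 4.24 to 4.36 in PBS and 4.43 to 4.66 in SP, within the range of the Y-linked rows or below it in every array, and its called difference of 0.21 (limma adjusted p = 0.0489) was lost without any 1 of the 8 arrays.

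Of the 25 arginine and polyamine genes with a row, 5 were higher in SP, 8 were lower and 12 were not called, with a median difference of 0.01. Among all rows 21.5% were called higher and 22.6% lower, with a median difference of 0.10. Nothing is read from the counts of this list. Gatm, glycine amidinotransferase, which uses arginine to make a creatine precursor, rose from 6.78 ± 0.32 to 8.89 ± 0.60 (SD, n = 4 each), 4.32-fold (limma adjusted p = 0.000704). It was at 8.98, 9.26, 8.03 and 9.31 in SP, with replicate 3 lowest. Spermine oxidase (Smox) was 2.21-fold higher (limma adjusted p = 0.0228) and Sat1, the acetyltransferase that starts polyamine breakdown, was 1.37-fold higher (limma adjusted p = 0.0152). The call of Smox did not hold when replicate 1 of either group or SP replicate 3 was left out. Of the enzymes that build polyamines from the product of Odc1, spermine synthase (Sms) fell from 8.97 ± 0.19 to 7.31 ± 0.31 (SD, n = 4 each), 3.17-fold (limma adjusted p = 0.000118). Spermidine synthase (Srm) was at 9.03, 9.23, 8.45 and 10.12 in SP and at 9.52 to 10.05 in PBS, and its difference of -0.58 (SE 0.32) was not called; without SP replicate 4 it was -0.88 and called. Among the regulators of ornithine decarboxylase, antizyme Oaz1 fell by 0.34 (limma adjusted p = 0.00692), the antizyme inhibitor Azin2 fell by 1.23 (limma adjusted p = 0.000569) and Azin1 differed by 0.01 (SE 0.10) and was not called. The call of Oaz1 was lost when arrays were centred on their medians. Oat, ornithine aminotransferase, which takes ornithine towards glutamate and proline, was 2.10-fold lower (limma adjusted p = 0.00229). The arginine transporter Slc7a1 was at 8.19 ± 0.16 in PBS and 8.15 ± 0.37 in SP (SD, n = 4 each) and was not called.

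All 31 genes of the itaconate and citric acid cycle list had a row, of which 21 were lower in SP, 4 higher and 6 not called, with a median difference of -0.71. Beside this stand 22.6% of all rows called lower and 21.5% called higher, with a median difference of 0.10. Aco1, the cytosolic aconitase, fell 1.74-fold (limma adjusted p = 0.0200), and its call did not hold when replicate 2 of either group or PBS replicate 1 was left out. Idh2, mitochondrial isocitrate dehydrogenase, was at 10.06, 10.28, 9.73 and 9.70 in PBS and at 8.00, 7.88, 6.72 and 8.55 in SP, 4.45-fold lower (limma adjusted p = 0.00163). The largest fall was that of pyruvate carboxylase (Pcx), 5.12-fold (limma adjusted p = 0.00023), followed by Idh2, malic enzyme 1 (Me1), 4.32-fold (limma adjusted p = 0.00084), and the dicarboxylate carrier Slc25a10, 3.71-fold (limma adjusted p = 0.000493). Of succinate dehydrogenase, the enzyme that itaconate inhibits, Sdhb was at 9.85 ± 0.10 and 9.69 ± 0.09 (SD, n = 4 each) and was not called. Sdha was 0.46 lower (limma adjusted p = 0.0410), and this call was lost under the replicate block and without any 1 of 5 arrays (all 4 PBS arrays and SP replicate 1). Keap1, a protein that itaconate alkylates, rose from 7.49 ± 0.09 to 8.51 ± 0.07 (SD, n = 4 each), 2.04-fold (limma adjusted p = 3.26e-05). Slc13a3, a dicarboxylate transporter that can carry itaconate, rose 3.19-fold (limma adjusted p = 0.0128), unevenly, with SP arrays at 7.03, 6.38, 6.55 and 8.52 over PBS arrays at 5.35 to 5.56.

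SP replicate 3 was the lowest SP array for 21 of these 31 genes, and SP replicate 4 was the highest for 23. In the nitric oxide and tetrahydrobiopterin list the counts were 12 and 13 of 18. Among all 2773 rows called at least 2-fold lower, SP replicate 3 was the lowest in 67.2% and SP replicate 4 the highest in 63.8%. The alveolar type 2 and club cell lists had their lowest and highest SP mean in the same arrays, with alveolar type 2 means of 11.13, 10.74, 10.42 and 11.57 in SP replicates 1 to 4, all below the PBS arrays. The ciliated cell list was lowest in SP replicate 3 but highest in SP replicate 2. The part of these cells in the lower values of the pathway lists was not tested.

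**Figure D4:**
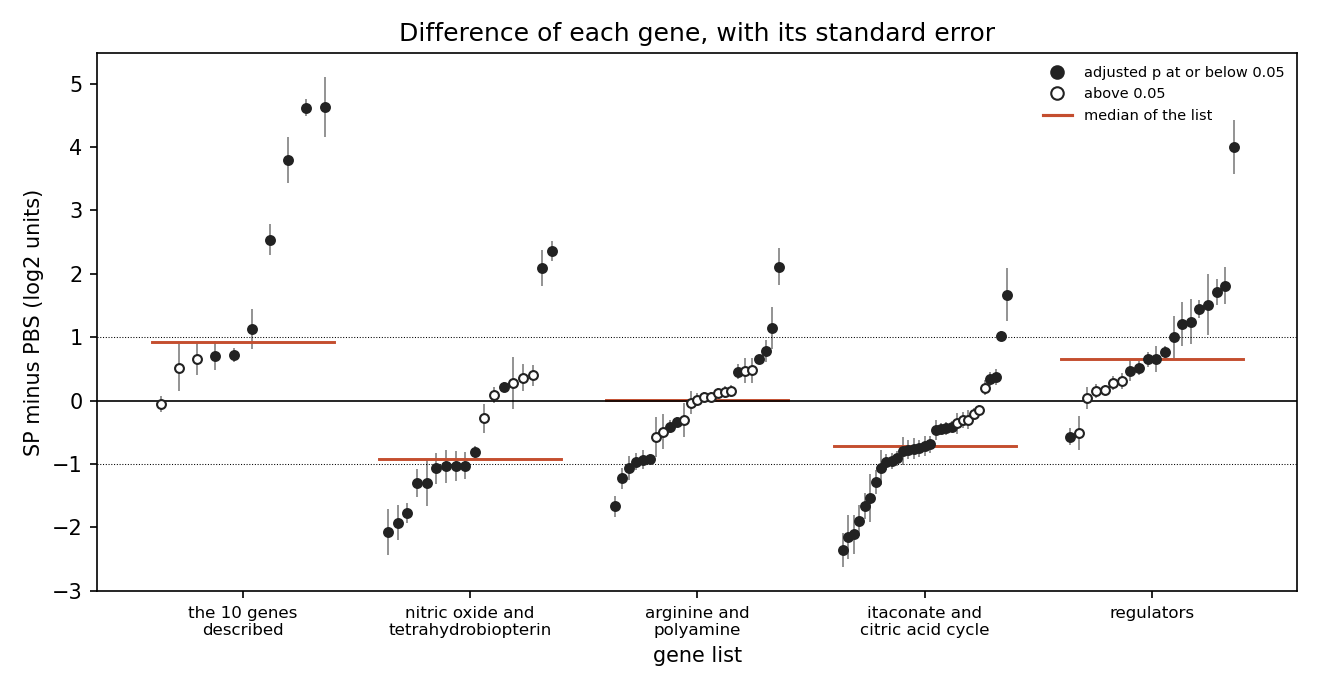
SP minus PBS difference in log2 units (vertical axis) of each of the 10 genes and of each gene of the 4 lists (horizontal axis, ordered within a list), with bars of 1 standard error; filled points have an adjusted p at or below 0.05, red lines mark each list's median and dotted lines a difference of 1. The medians are 0.92 for the 10 genes, -0.92, 0.01 and -0.71 for the pathway lists and 0.65 for the regulators.

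Genes that regulate Nos2, Arg1 or Acod1 in myeloid cells made up the last list, in which 13 of 20 were higher in SP, 1 lower and 6 not called, with a median difference of 0.65. For all rows the shares were 21.5% higher and 22.6% lower, with a median difference of 0.10. Tnf, an inducer of Nos2, had the largest difference of the list, from 8.74 ± 0.996 to 12.75 ± 0.13 (SD, n = 4 each), 16.03-fold (limma adjusted p = 0.000183). Irf1, a transcription factor that acts downstream of interferons, rose 3.27-fold (limma adjusted p = 0.000291). It was at 10.92, 10.10, 11.04 and 10.84 in PBS and at 12.55, 12.57, 12.35 and 12.26 in SP. Il10ra, a chain of the interleukin 10 receptor, was 2.85-fold higher (limma adjusted p = 0.0345), over PBS arrays that ranged from 8.66 to 11.06. Ifng, the interferon gamma gene, was at 7.39, 7.63, 6.27 and 6.26 in SP and at 5.34 to 6.08 in PBS, 2.31-fold higher (limma adjusted p = 0.0220). Cebpb, a transcription factor at the Arg1 enhancer, was 2.00-fold higher (limma adjusted p = 0.0382), and Hif1a, the hypoxia-inducible factor, 1.58-fold (limma adjusted p = 0.0295). The calls of Il10ra, Ifng, Cebpb and Hif1a did not hold under the methods' t-test, nor when 1 array was left out (6 of the 8 arrays for Cebpb, 5 for Il10ra, 4 for Hif1a and 3 for Ifng). Those of Il10ra, Cebpb and Hif1a were also lost with another quantile normalization. Il4 and Il13, the cytokines that induce Arg1 in macrophages, read at most 4.92 in any array, close to the Y-linked rows, and were not called. Il4ra, a receptor chain for both cytokines, was 1.43-fold higher (limma adjusted p = 0.00671). Stat6 differed by 0.31 (SE 0.13) and was not called. Il4, Il13, Il4ra and Stat6 were named after their values were seen. Expression of Il4 and Il13 in lung cells outside these samples was not measured. The part of these genes in the Arg1 difference was not tested.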

How the data were processed

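Expression was measured in 8 samples of lung neutrophils, 4 PBS and 4 SP, on 1 Affymetrix Mouse Gene 1.1 ST array each. The authors deposited log2 intensities. Per the study's methods RMA made them, with corrections for background, GC content and probe sequence, then quantile normalization and a median polish per gene, and the submitters' processing notes name Affymetrix Expression Console, RMA and Partek. Quantile normalization is meant to give arrays of different RNA makeup a like distribution, so a difference is relative to the other rows. The deposited arrays did not fully share 1 distribution. Their medians were 5.78 to 5.91 in SP and 6.06 to 6.20 in PBS, and the reason was not tested. Values near either end of the scale understate differences. Groups and replicate numbers came from the sample titles. RefSeq row names were matched to symbols for 19915 of 24625 rows (80.9%). The deposited scale was kept. limma 3.58.1 (R 4.3.3) compared the groups in a two-sided test with no covariate, p-values were adjusted by Benjamini-Hochberg across the 24625 rows, and a row was called at an adjusted p of at most 0.05. The number of arrays limits the precision. The model was tested on simulated data.

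The members and lists were chosen with earlier results of these data known. Named were the 10 genes; of each list the 4 largest called rises and falls of at least 2-fold and a fixed set of pathway and regulator genes; the 3 nearest rows to Nos2, Arg1 and Acod1; and marker genes. Il4, Il13, Il4ra and Stat6 were named after their values were seen. Alternatives were the methods' t-test (a one-way ANOVA of 2 groups), the replicate number as a block, arrays centred on their medians, another quantile normalization, rows below the median intensity left out, an intensity trend with a robust prior, and each array left out in turn. Replicate numbers are not stated to pair mice, so they were not taken as pairs in the main fit. The deviations of same-numbered arrays from their group means correlated at r = 0.016, 0.03, 0.35 and -0.274 for replicates 1 to 4. The 0.35 was the highest value of any PBS array with any SP array. These correlations cannot decide whether the arrays are paired, because the deviations within a group of 4 depend on each other. The NF-κB site was searched as GGG, 4 or 5 bases and CC. The microRNA arrays of the study and protein identity between related genes were not analysed here, and a few genes that the naming rule covers are not reported here.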

Additional observations from a re-analysis of the deposited data

Results flagged for a closer look

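Among 94 groups of 4 arrays examined, 3 held a value that stood apart from the others by Dixon's criterion, which chance meets in about 1 in 20 groups. All 3 were in SP replicate 3. Slc7a2 was lowest there, at 8.31 against 9.74 for the nearest array. Cebpb was highest there, at 11.94 against 11.54. Sdhb was highest there, at 9.83 against 9.67.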

How the results depend on the processing

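Each of the 10 genes kept a difference of the same sign under every alternative run except Odc1, which was 0.23 with arrays centred and between -0.16 and 0.04 with 1 array left out. Their number called higher was 5 to 9 and at 2-fold 4 to 6. Asl was 1.10 (quantile) and 0.99 (centred), and Lacc1 4.90 (centred). Averaging several rows of a symbol could not be run because each gene had 1 row. Centring raises SP minus PBS of every row by 0.28, and rows called higher then numbered 14219 (2-fold 2375) against 5306 (1568), and 2971 with dim rows left out. With centring the nitric oxide list had 5 higher and 5 at 2-fold lower, the arginine list 12 higher and 1 at 2-fold lower, and the regulators 0 lower. With another quantile normalization the nitric oxide list had 4 at 2-fold lower, the arginine list 9 higher and the itaconate list 2 higher, also 2 with dim rows left out. Under the methods' t-test the arginine list had 1 at 2-fold higher and the regulators 7 higher and 4 at 2-fold. With 1 array left out, rows called higher ranged from 3528 (without PBS replicate 1) to 5301; the nitric oxide list had 4 (without PBS replicate 1) to 9 at 2-fold lower; the arginine list 1 (without PBS replicate 1 or 2, or SP replicate 1 or 3) to 2 at 2-fold higher; the itaconate list 2 (without PBS replicate 1 or 2) to 4 higher and 1 (without PBS replicate 1 or SP replicate 3) to 2 at 2-fold; and the regulators 7 (without SP replicate 1) to 13 higher, 4 (without SP replicate 1 or 2) to 7 at 2-fold and 1 to 2 (without SP replicate 4) lower. Under the methods' t-test Gch1 and Acod1 were not called. Arg2 was also called with centring, dim rows left out and the trend and robust prior, and Slc7a2 with centring. The replicate block gave 7 of the 10 genes and 5 at 2-fold, the counts without it, and moved no list count by over 1.5 times. Signs turned only for genes that were not called. Azin1 was -0.20 (quantile) and -0.061 to 0.070 leaving 1 out, Gchfr -0.070 (quantile) and -0.019 to 0.15, Nos3 -0.064 (without SP replicate 4) to 0.66, Sdhb 0.13 (centred), and Slc7a1 0.25 (quantile), 0.25 (centred) and -0.14 to 0.13. Apart from centring and the fewer rows or arrays tested, the cause was not tested.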
